A study of Mus musculus with 12 samples.

Results

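BiP, encoded by Hspa5, is the Hsp70 chaperone of the endoplasmic reticulum (ER), and it works with a small set of partner proteins in the same compartment. The 10 genes described here are Hspa5, its J-domain partners Dnajb9, Dnajb11 and Dnajc3, its nucleotide exchange factors Hyou1 and Sil1, the associated lumenal proteins Sdf2l1, Manf and Creld2, and the ER Hsp70 relative Hspa13. They were chosen by name, with earlier results of these data known. Their values are those of all 21 probe sets that a probe annotation maps to one of these symbols alone, among 18193 genes with such a probe set. All 10 were among the 13009 genes that passed a filter on low signal.

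The arrays measured total RNA of muscle from mice 4 weeks after birth. Both muscles came from knockout mice for H6pd, the gene for hexose-6-phosphate dehydrogenase (KO), and from wild-type mice (WT). Tibialis anterior (TA), a mostly fast muscle, and soleus, which is rich in slow fibres, gave 4 groups of 3 arrays each: KO TA, WT TA, KO soleus and WT soleus. The submitters chose the muscles for their different fibre types and metabolism, and they describe mice of this age as free of overt myopathy by histology. The sources used here give neither strain nor sex nor the deleted part of H6pd. The labels call the replicates biological and say no more, so p-values measure only the spread between these arrays, and their number limits the precision.

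BiP binds unfolded stretches of proteins entering the ER and releases them in a cycle driven by ATP. J-domain proteins bring it clients and start ATP hydrolysis, and exchange factors remove ADP so that the client is let go. When unfolded proteins build up in the ER, the unfolded protein response raises transcription of BiP and many of its partners through the factors ATF6, XBP1 and ATF4. H6pd is itself a lumenal ER enzyme that makes NADPH from glucose-6-phosphate, and muscle keeps a specialised ER, the sarcoplasmic reticulum, for calcium storage.

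The known promoter elements of this response are short, and they are shown because they are the sequence feature that some of these genes share. One promoter window, from 250 bases before to 50 bases after the transcription start, was found in RefSeq tables (GRCm38.p6) for each of 6 members. These were Hspa5, Dnajb9, Dnajb11, Dnajc3, Sdf2l1 and Creld2, while Hyou1, Sil1, Manf and Hspa13 are named only. The ER stress response element ERSE was searched on both strands as CCAAT and CCACG with any 9 bases between them. It was in 3 of the 6 member windows and in 39 of 32851 windows over all genes (0.119%). The sequences below are the 130 bases before the start, 5′ to 3′ on the gene's strand, with the CCAAT and CCACG blocks of an ERSE, or a lone CCACG, in capitals (ATTGG and CGTGG where the match is on the reverse strand).
Hspa5, chr2:34771960-34772089, plus strand: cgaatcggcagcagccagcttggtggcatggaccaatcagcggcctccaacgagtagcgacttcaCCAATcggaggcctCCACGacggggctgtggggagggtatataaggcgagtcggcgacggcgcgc
Dnajc3, chr14:118937802-118937931, plus strand: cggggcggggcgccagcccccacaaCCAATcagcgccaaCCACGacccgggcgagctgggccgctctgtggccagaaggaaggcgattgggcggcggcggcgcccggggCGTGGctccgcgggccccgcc
Creld2, chr15:88819516-88819645, plus strand: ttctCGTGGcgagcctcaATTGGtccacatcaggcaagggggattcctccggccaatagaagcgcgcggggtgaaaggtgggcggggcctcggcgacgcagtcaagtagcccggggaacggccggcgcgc
Dnajb9, chr12:44210069-44210198, minus strand: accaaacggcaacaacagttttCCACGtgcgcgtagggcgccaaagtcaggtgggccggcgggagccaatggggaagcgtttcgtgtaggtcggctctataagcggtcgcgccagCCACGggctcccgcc
Sdf2l1, chr16:17132384-17132513, minus strand: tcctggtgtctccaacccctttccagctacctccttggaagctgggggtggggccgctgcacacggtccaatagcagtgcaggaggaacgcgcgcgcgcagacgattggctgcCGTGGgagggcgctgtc

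In Hspa5 the ERSE lay 65 to 47 bases before the start, in Dnajc3 105 to 87 bases before it, and in Creld2 126 to 108 bases before it on the reverse strand. The related element ERSE-II, searched on both strands as ATTGG and CCACG with any 1 base between them, was in the Dnajb11 window alone among the 6 and in 12 of the 32851 windows (0.0365%). It lay 8 to 18 bases after the start, and the capitals mark it within the 30 bases of chr16:22857843-22857872 on the plus strand.
Dnajb11: ccggcggcgATTGGCCCACGcctggctgct
The CCACG block alone, which lies within both elements, was in 6 of 6 member windows and in 32.8% of all windows. The XBP1 site TGACGTGG and the ATF4 element searched as TGATGNAA, on both strands, were in 0 of the 6, against 0.676% and 3.97% of all windows. Such matches only describe the letters in these windows.

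The deposited values are log2 signals, and a group mean below log2 4 is called near background here. Soleus and TA lay apart on the first principal component (46.6% of the variance). The second (18.6%) set the 4 arrays numbered 3, 1 of each group, at -33.9 to -23.8, against 5.82 to 21.9 for the other 8. The labels do not say what these arrays share beyond their number, so results are also given without them. The targeted gene H6pd had log2 signals of 6.89, 6.49 and 7.49 in KO TA and of 6.37, 6.26 and 7.92 in WT TA. It had 4.19, 4.41 and 6.10 in KO soleus and 5.57, 6.12 and 7.11 in WT soleus. H6pd overlapped between genotypes in both muscles, with a difference of 0.11 in TA (SE 0.62, limma adjusted p = 0.966) and of -1.36 in soleus (SE 0.62, adjusted p = 0.577). Since the deleted part is not known here, this level does not check the genotype labels. The muscle markers Ckm, Acta1, Des, Ttn and Mb were well above background on all 12 arrays.

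In TA, BiP and most of its partners were higher in KO than in WT mice. All 10 genes had a positive difference, and on every one of the 3 KO TA arrays all 10 lay above all 3 WT TA arrays. The linear model (limma, Benjamini-Hochberg adjustment over 13009 genes, 0.05) called 6 of the 10 higher and 0 lower: Manf, Sdf2l1, Dnajb9, Creld2, Hspa5 and Hspa13. Over all genes tested 1.42% were called higher and 1.41% lower, and 10.7% were higher in KO TA with no overlap between the groups. The median log2 difference of the 10 was 1.39, beside -0.005 over all genes.

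**Figure D1:**
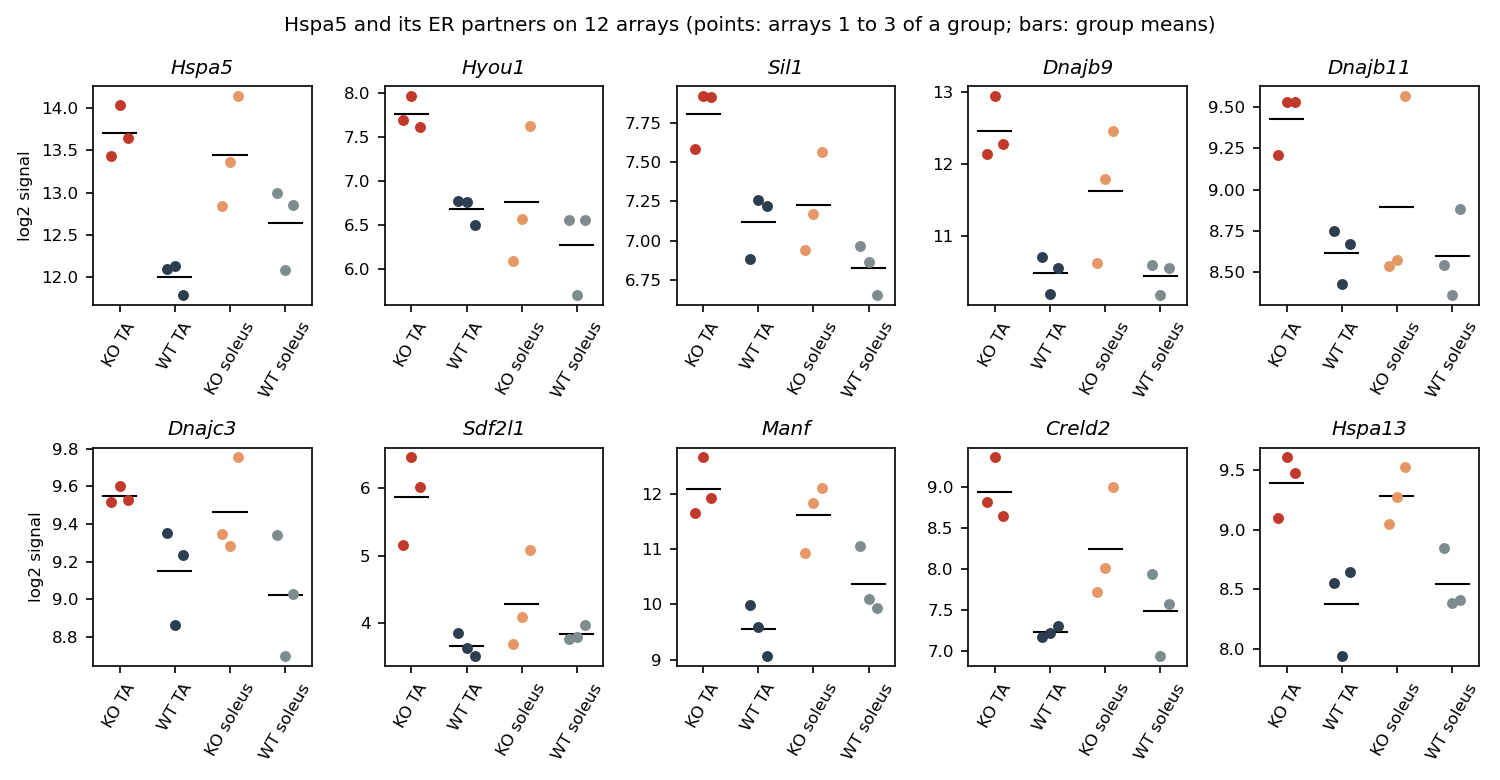
Log2 signal of the 10 genes on the 12 arrays, with one panel per gene and its own vertical axis; points are arrays 1 to 3 of each group from left to right and bars are group means. The KO TA points lie above the WT TA points in all 10 panels, while KO and WT soleus overlap in all but Dnajb9 and Hspa13.

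Hspa5, the chaperone itself, had log2 signals of 13.42, 14.03 and 13.65 in KO TA, against 12.10, 12.13 and 11.79 in WT TA. The lowest KO array lay more than 1 log2 unit above the highest WT array. The log2 signal of Hspa5 rose by 1.69 (SE 0.33, adjusted p = 0.0271), which is 3.24-fold. It was number 36 of 13009 genes ranked from the highest positive difference.

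The J-domain partners differed in how far they moved. Dnajb9 (ERdj4), which takes clients to degradation and holds the stress sensor IRE1 in check, had 12.14, 12.94 and 12.28 in KO TA and 10.72, 10.20 and 10.57 in WT TA. The groups stood well apart, and Dnajb9 rose by 1.96 (SE 0.40, adjusted p = 0.0325), which is 3.89-fold. Dnajb11 (ERdj3), which binds nascent chains and passes them to BiP, had 9.21, 9.53 and 9.53 in KO TA and 8.75, 8.43 and 8.67 in WT TA. Its groups did not overlap, but its difference of 0.81 (SE 0.26, adjusted p = 0.139) did not pass the test. Dnajc3 (p58IPK), a lumenal co-chaperone also known as an inhibitor of the kinase PERK, had 9.52, 9.60 and 9.53 in KO TA and 9.35, 8.86 and 9.23 in WT TA. Its 3 KO arrays were close together just above the WT arrays, and the difference of 0.40 (SE 0.19, adjusted p = 0.332) was the smallest of the 10 and did not pass.

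Neither exchange factor passed the test in TA. Hyou1 (Grp170), a large Hsp70 relative that releases ADP from BiP, had 7.69, 7.96 and 7.61 in KO TA and 6.77, 6.76 and 6.50 in WT TA. These groups did not overlap, yet the difference of 1.08 had a 95% interval of 0.27 to 1.88 and an adjusted p of 0.154. Sil1, the other exchange factor, whose loss in people causes Marinesco-Sjögren syndrome with muscle disease, had 7.58, 7.92 and 7.91 in KO TA and 6.88, 7.26 and 7.22 in WT TA. The groups again stood apart, with a difference of 0.69 (SE 0.19, adjusted p = 0.0886).

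The 3 lumenal partner genes all rose in KO TA. Manf, which binds BiP and slows its nucleotide exchange and can be secreted, had 11.66, 12.66 and 11.93 in KO TA, against 9.98, 9.60 and 9.06 in WT TA. It rose by 2.54 (SE 0.41, adjusted p = 0.014), or 5.80-fold, the third largest positive difference of all 13009 genes. Sdf2l1, a lumenal protein found in complex with Dnajb11, had 5.15, 6.44 and 6.01 in KO TA and 3.86, 3.64 and 3.52 in WT TA. The WT TA mean of 3.67 was near background, so Sdf2l1 rose at least 3.65-fold, taking WT TA at log2 4 (measured difference 2.20, SE 0.37, adjusted p = 0.0155). Creld2, a lumenal protein with EGF-like repeats, had 8.83, 9.37 and 8.65 in KO TA and 7.17, 7.22 and 7.30 in WT TA. Creld2 was tightly grouped in WT TA and rose by 1.72 (SE 0.35, adjusted p = 0.0325).

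Hspa13 (Stch), an Hsp70 relative of the ER that lacks the client-binding domain, had 9.10, 9.61 and 9.48 in KO TA and 8.55, 7.94 and 8.65 in WT TA. The groups were separate, and Hspa13 rose by 1.02 (SE 0.23, adjusted p = 0.0454), or 2.03-fold. This was the call nearest to the threshold: in a fit over all 22648 kept probe sets the adjusted p of the same probe set was 0.0546.

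**Figure D2:**
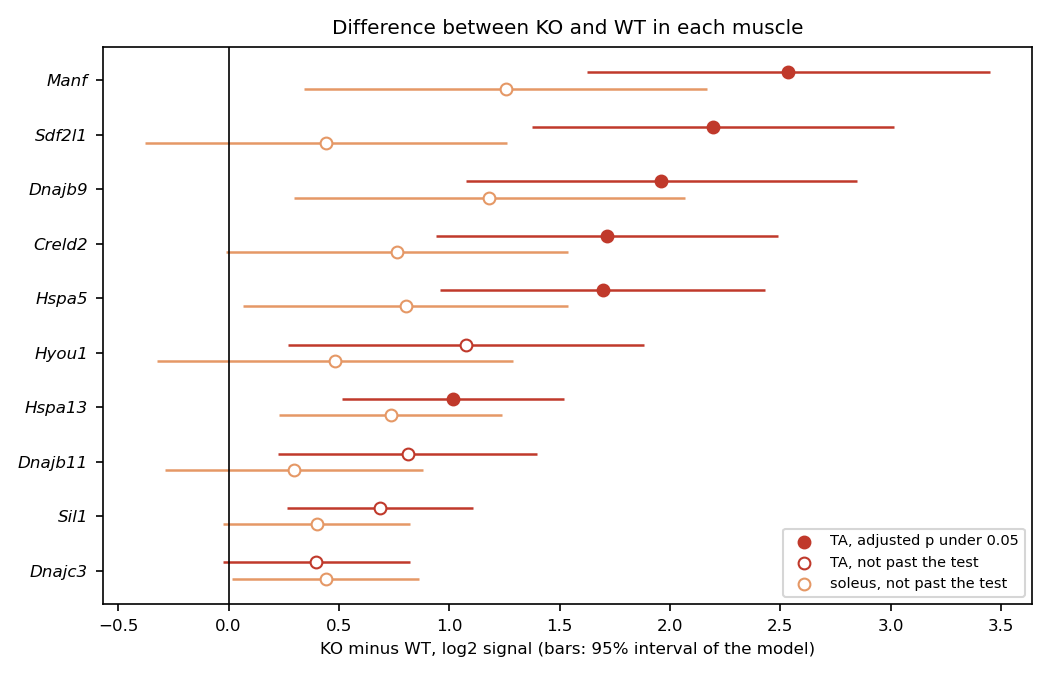
KO minus WT log2 signal of each gene in TA (red) and soleus (orange), with 95% intervals of the linear model; filled points passed an adjusted p of 0.05. Manf has the largest difference in TA (2.54) and Dnajc3 the smallest (0.40), and all 20 differences are above 0.

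Several genes had more than one probe set. Of the 21, 20 passed the signal filter, and a Hyou1 probe set did not. In TA 19 of the 20 were positive, with a median difference of 0.88. A total of 6 were called higher, against 0.976% of all kept probe sets: both bright ones of Hspa5 and those of Dnajb9, Sdf2l1, Manf and Creld2. The other bright Hspa5 probe set rose by 1.95 (SE 0.39, adjusted p = 0.0384). The exception in sign was the third Hspa5 probe set, which had 8.91, 8.60 and 9.34 in KO TA and 9.12, 9.12 and 9.37 in WT TA. Its groups overlapped, at a difference of -0.25 (SE 0.25, adjusted p = 0.702), so the Hspa5 probe sets disagreed. The 4 other Dnajc3 probe sets were positive at 0.36 to 0.86, none past the test. The dimmest of them, at 0.40, was near background, with means of 3.85 in KO TA and 3.45 in WT TA. The second kept Hyou1 probe set gave 0.91 (adjusted p = 0.317). The second Hspa13 probe set by signal spread most within groups, with 7.72, 9.03 and 9.87 in KO TA and 8.50, 7.83 and 8.79 in WT TA. It overlapped fully, at 0.50 (SE 0.84). A dim Hspa13 probe set counted among the 19 gave 1.31 (SE 0.52). Its means of 3.95 in KO TA and 2.64 in WT TA were both near background. The dimmest Hspa13 probe set is counted among the 19 but passed the filter only through KO arrays, so its sign adds no support. It had 2.23, 3.02 and 2.82 in KO TA and 2.24, 2.23 and 2.25 in WT TA, near background.

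**Figure D3:**
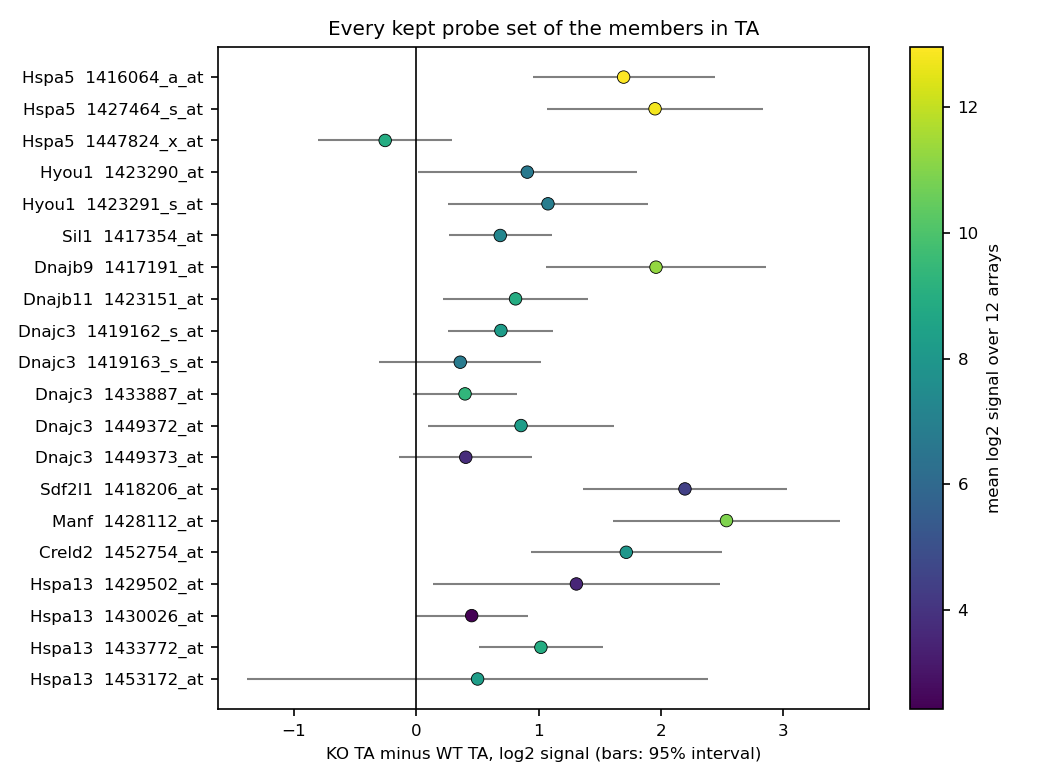
KO TA minus WT TA log2 signal of the 20 kept probe sets, with 95% intervals; colour gives the mean log2 signal over 12 arrays. The 2 brightest Hspa5 probe sets lie at 1.69 and 1.95, and the third Hspa5 probe set is the only one below 0 (-0.25).

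The direction in TA held without the arrays numbered 3, but the calls did not. On the remaining 2 arrays a group, 0 of the 10 genes passed, while the differences of the 6 called genes were 2.37 for Manf, 2.08 for Dnajb9, 2.05 for Sdf2l1, 1.90 for Creld2, 1.62 for Hspa5 and 1.11 for Hspa13 (limma adjusted p 0.0828 to 0.147). Leaving out single TA arrays left 5, 0 and 1 members called without KO TA 1, 2 and 3, and 2 each without WT TA 1, 2 or 3. The members' range of differences remained above 0 in each case. Calls over all genes tested, 368 as reported, fell as well except without KO TA 1. Without the arrays numbered 3 there were 56. Without KO TA 1, 2 and 3 there were 398, 85 and 117. Without WT TA 1, 2 and 3 there were 178, 204 and 242.

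Other markers moved in TA as well. Slow fibre genes (Myh7, Tnnt1, Tnni1, Tnnc1, Myl2 and Myl3) were positive in 6 of 6 with 0 called. Their summed unlogged signal was 2724 to 5589 in KO TA, against 801 to 2450 in WT TA and 216574 or more in soleus. The low end in WT TA was array 3, where all 6 were below WT TA arrays 1 and 2. Myh7 was 2.67 on it, against 7.11 and 8.25. The 6 fast fibre genes were mixed, 2 positive and 4 negative with a median of -0.09. Of these Myh2, a fast myosin, rose by 1.64 (adjusted p = 0.011), while Actn3, chosen after its values were seen, had a mean of 14.50 in KO TA and of 15.48 in WT TA and did not pass (adjusted p = 0.620). All 8 fibroblast genes were positive with 0 called and a median of 0.24, with sums of 58338 to 89170 in KO TA and of 58243 to 72001 in WT TA. Of the lymphocyte and plasma cell genes, Ighm alone was called, and it fell by 3.51 (adjusted p = 0.00876). The summed signal, 200.2 to 386.3 in KO TA against 1640 to 2221 in WT TA, follows Ighm: the 2 other tested genes did not pass, Sdc1 at 0.03 (adjusted p = 0.982) and Cd3e at -0.10 (adjusted p = 0.581), and 2 of 5 measured markers were near background on all arrays. Among 4 tendon genes, 2 were positive and 2 negative with a median of -0.13, and Thbs4 fell by 1.58 (adjusted p = 0.0256). Their sum, largely of Thbs4 and Tnmd, was 1510 to 3854 in KO TA and 3877 to 4760 in WT TA. The myeloid sum was 1057 to 3823 in KO TA and 1084 to 1984 in WT TA. Adipocyte genes were positive in 4 of 4 and smooth muscle genes negative in 4 of 4, with 0 called. Near background were 2 of the adipocyte genes in both TA groups and 1 smooth muscle gene in KO TA. The part of these markers in the chaperone differences was not tested. In whole muscle, fewer cells of a type and less RNA per cell cannot be told apart.

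In soleus the same 10 genes all had positive differences, but none passed the test. The median was 0.61, beside 0.002 over all genes, and limma called 0 of 10 where it called 0.0231% of all genes higher (3 of 13009). At an unadjusted p under 0.05 there were 5 members, against 8.76% of all genes, and KO lay above WT without overlap for 2 members, Dnajb9 and Hspa13, against 5.88% of all genes. The KO soleus arrays differed among themselves. Arrays 1, 2 and 3 had 3, 8 and 10 of the 10 genes above all WT soleus arrays, where 25.1%, 19.6% and 31.8% of all genes lay so.

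Hspa5 had log2 signals of 12.84, 13.36 and 14.14 in KO soleus, against 13.00, 12.09 and 12.85 in WT soleus. The first KO array lay within the WT range and the third well above it, and the difference was 0.80 (95% interval 0.07 to 1.54, adjusted p = 0.520). Manf had the largest difference, with 10.93, 11.83 and 12.11 in KO soleus and 11.06, 10.10 and 9.94 in WT soleus. One KO array fell below one WT array, at a difference of 1.25 (SE 0.41, adjusted p = 0.359). Dnajb9 had 10.64, 11.79 and 12.46 in KO soleus and 10.60, 10.19 and 10.56 in WT soleus. Its first KO array was barely above the highest WT array, and the difference was 1.18 (SE 0.40, adjusted p = 0.379).

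Hspa13 had 9.04, 9.27 and 9.53 in KO soleus and 8.85, 8.39 and 8.41 in WT soleus. Its KO arrays were all above the WT arrays, at a difference of 0.73 (SE 0.23, adjusted p = 0.326). Creld2 had 7.73, 8.01 and 9.004 in KO soleus and 7.94, 6.93 and 7.58 in WT soleus, overlapping at a difference of 0.76 (adjusted p = 0.577). The 5 other genes had differences of 0.30 (Dnajb11) to 0.48 (Hyou1), with adjusted p of 0.551 to 0.888. Sdf2l1 had 3.69, 4.09 and 5.09 in KO soleus, where the third array stood clear of the others, and 3.76, 3.80 and 3.98 in WT soleus, again near background.

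The sizes in soleus depended on single arrays. Without KO soleus array 3, the difference was 1.01 for Manf, 0.76 for Dnajb9, 0.61 for Hspa13, 0.46 for Hspa5, 0.38 for Creld2, 0.29 for Dnajc3, 0.23 for Sil1, 0.053 for Hyou1, 0.042 for Sdf2l1 and -0.041 for Dnajb11. Without WT soleus array 2, it was 0.52 for Hspa5, 0.49 for Creld2, 0.28 for Dnajc3, 0.20 for Hyou1 and 0.18 for Dnajb11, each over 1.5 times smaller than with it. Differences over 1.5 times larger came without KO soleus array 1, at 0.82 for Hyou1, 0.74 for Sdf2l1 and 0.48 for Dnajb11, and without KO soleus array 2, at 0.46 for Dnajb11. Without the arrays numbered 3 in all groups, all 10 were positive and none passed, at 0.82 for Dnajb9, 0.80 for Manf, 0.56 for Hspa5, 0.54 for Hspa13, 0.43 for Creld2, 0.30 for Dnajc3, 0.20 for Hyou1, 0.14 for Sil1, 0.11 for Sdf2l1 and 0.10 for Dnajb11. With weights for array quality, limma called 1 member, Hspa13 (adjusted p = 0.0466), where it called 360 of all genes, against 4 without weights. In soleus, endothelial markers were negative in 6 of 6 with 0 called, with sums of 2014 to 2633 in KO and of 2558 to 3079 in WT, and their part in these values was not tested. The slow fibre sum was 229789 to 271099 in KO soleus and 216574 to 255768 in WT soleus.

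**Figure D4:**
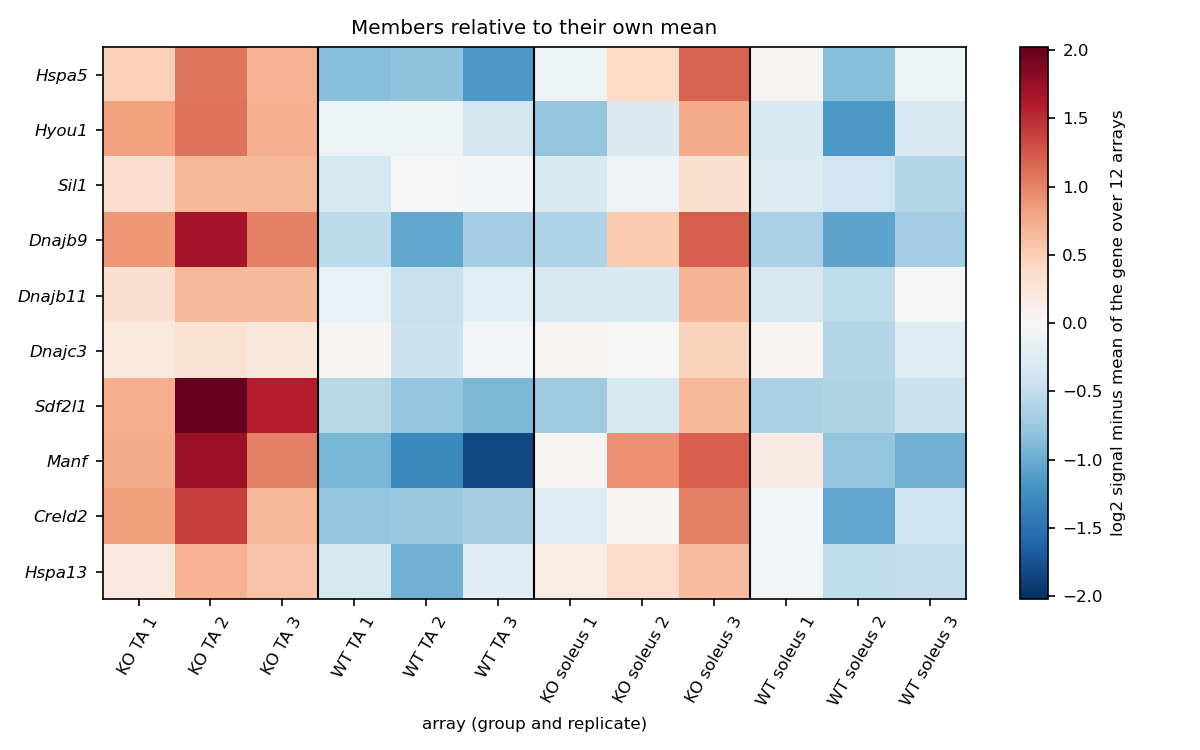
Log2 signal of each gene (rows) on each array (columns) minus that gene's mean over the 12 arrays. The KO TA columns are above the mean for all 10 genes, and among KO soleus columns array 3 is the highest for all 10 and array 1 lies near the WT soleus columns.

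Averaged over the 9 members with a mean log2 above 5, all but Sdf2l1, the signal relative to each gene's own mean was 0.54, 1.04 and 0.70 in KO TA and -0.44, -0.65 and -0.59 in WT TA. It was -0.24, 0.18 and 0.83 in KO soleus and -0.16, -0.77 and -0.42 in WT soleus. The KO soleus arrays thus spanned more than 1 log2 unit, from within the WT soleus range to the level of KO TA.

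Whether the KO difference was larger in TA than in soleus was tested as an interaction. For 9 of the 10 genes the difference was larger in TA, with a median of 0.69, but limma called 0 of them, where it called 0.0384% of all genes. At an unadjusted p under 0.05 there was 1 member, Sdf2l1, against 5.71% of all genes. For Sdf2l1 the TA difference exceeded the soleus difference by 1.76 (95% interval 0.60 to 2.91, adjusted p = 0.590), from WT levels near background in both muscles. Manf exceeded by 1.28 (95% interval -0.01 to 2.57), Creld2 by 0.95 (-0.14 to 2.05) and Hspa5 by 0.89 (-0.15 to 1.93). Dnajc3 was the exception at -0.04 (-0.64 to 0.56). These intervals hold both equal differences and TA differences well above those in soleus, Sdf2l1 apart.

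Between muscles of WT mice the 10 genes did not stand out. Of the 10, 5 had higher and 5 lower signals in WT soleus than in WT TA, with a median of 0.07, and limma called 0, where it called 10.7% of all genes. At an unadjusted p under 0.05 there were also 0, against 27.1% of all genes. The largest differences were 0.82 for Manf (95% interval -0.09 to 1.73, adjusted p = 0.230) and 0.64 for Hspa5 (-0.10 to 1.37, adjusted p = 0.245), and the lowest was -0.40 for Hyou1 (-1.21 to 0.41). Signs near 0 depended on the scaling: 7 genes were positive on the values as deposited and 4 after median centring.

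Between muscles of KO mice all 10 genes were lower in soleus than in TA by the sign of the difference, with a median of -0.56, and 1 passed the test, against 4.61% of all genes called lower. Sdf2l1, with the values given above, fell by 1.58 in KO soleus relative to KO TA (SE 0.37, adjusted p = 0.0270). Its groups did not overlap, and neither did those of Sil1 (-0.58, adjusted p = 0.0935), against 18.5% of all genes lower without overlap. The differences closest to 0 were those of Dnajc3 (-0.09), Hspa13 (-0.11) and Hspa5 (-0.26). Without the arrays numbered 3, 3 genes were called lower: Sdf2l1 (-1.91), Hyou1 (-1.50) and Dnajb11 (-0.82). In that setting 1069 of all genes were called in either direction. Without KO TA array 2 or 3, or KO soleus array 1 or 2, and with the KO arrays fitted alone, there were 0. These settings called 585 to 816 of all genes in either direction. Without KO soleus array 3 there were 4 members, where 1072 of all genes were called in either direction. All of these comparisons share groups with the KO and WT comparisons, so they are not separate evidence.

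Across the 4 group means, Hspa5 ran highest in KO TA at 13.70 ± 0.31, then KO soleus at 13.45 ± 0.65, WT soleus at 12.64 ± 0.49 and WT TA at 12.01 ± 0.19 (log2, SD, n = 3 each). Neighbours in this order did not differ past the test where it was run, which was KO soleus against KO TA, KO against WT in soleus, and WT soleus against WT TA.

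Neighbouring gene lists of the ER folding machinery were read from the same fit. Over all genes in TA, 1.42% were called higher and 1.41% lower, 48.6% were positive and the median was -0.005. Of 16 tested ER lectins, Hsp90 and prolyl isomerases, 5 rose in KO TA and 0 fell, 14 were positive and the median was 0.51. Calr (calreticulin, a calcium-binding lectin chaperone) had 13.78, 14.08 and 13.60 in KO TA and 12.48, 12.39 and 12.12 in WT TA, and rose by 1.49 (adjusted p = 0.0137). Hsp90b1 (GRP94, the ER Hsp90) had 12.47, 12.90 and 12.50 in KO TA and 11.57, 11.26 and 11.33 in WT TA, and rose by 1.24 (adjusted p = 0.0366). The groups of both genes were far apart. The dimmer Hsp90b1 probe set gave 1.14 (SE 0.89) with overlapping groups and did not pass. Fkbp11, a prolyl isomerase, rose by 1.38 (adjusted p = 0.0257). Cnpy3, a co-chaperone of Toll-like receptor folding, rose at least 4.20-fold from a WT TA mean near background (adjusted p = 0.00925), and Ppib (cyclophilin B) rose by 0.65 (adjusted p = 0.0454). In the limma fit over all kept probe sets, the same Ppib probe set had an adjusted p of 0.0546. The dimmer Ppib probe set gave 0.59 there (adjusted p = 0.113).

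Of 20 disulfide isomerases and ER oxidases, 2 rose, 0 fell, 17 were positive and the median was 0.38. Pdia6, an isomerase that associates with BiP, had 9.87, 10.64 and 10.06 in KO TA and 8.69, 8.51 and 8.04 in WT TA. It rose by 1.78 (adjusted p = 0.011), and P4hb, the main protein disulfide isomerase, rose by 1.03 (adjusted p = 0.0102). Of 26 sensors, effectors and targets of the unfolded protein response, 2 rose, 0 fell, 24 were positive and the median was 0.67. Ddit3 (CHOP, a stress transcription factor) had 9.50, 10.73 and 11.05 in KO TA and 8.32, 8.18 and 7.98 in WT TA. It rose by 2.27 (adjusted p = 0.0235), while a dimmer Ddit3 probe set gave 0.70 and did not pass. Derl1, part of the channel that retrieves misfolded proteins for degradation, rose by 0.77 (adjusted p = 0.036).

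The remaining lists were mixed. Of 11 other ER J-domain proteins, BiP modifiers and paralogues, 2 rose, 0 fell, 5 were positive and the median was -0.09. Ficd, the enzyme that switches BiP off and on by AMPylation, had 5.06, 6.10 and 5.48 in KO TA and 4.05, 4.03 and 4.54 in WT TA. Its groups did not overlap, and it rose by 1.34 (adjusted p = 0.0488). In the limma fit over all kept probe sets, the adjusted p of the same Ficd probe set was 0.0594. Dnajc18, a J-domain protein of the ER membrane, rose by 1.53 (adjusted p = 0.014) by its brighter probe set, while the other gave -0.01. Of 21 cytosolic, mitochondrial and other Hsp70s with cytosolic J-domain proteins, 1 rose (mitochondrial Hspa9, by 0.67, adjusted p = 0.0156) and 1 fell (cytosolic Dnajc7, by 0.54, adjusted p = 0.0338). That list had a median of 0.14. The other Hspa9 probe sets gave 0.61, 0.48 and 0.12 in TA, and none passed. In soleus limma called 0 genes in each of the 5 lists, with medians of 0.29 for the lectins, Hsp90 and prolyl isomerases, 0.12 for the isomerases and oxidases, 0.24 for the response genes, -0.003 for the other BiP partners and 0.08 for the cytosolic and mitochondrial chaperones.

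**Figure D5:**
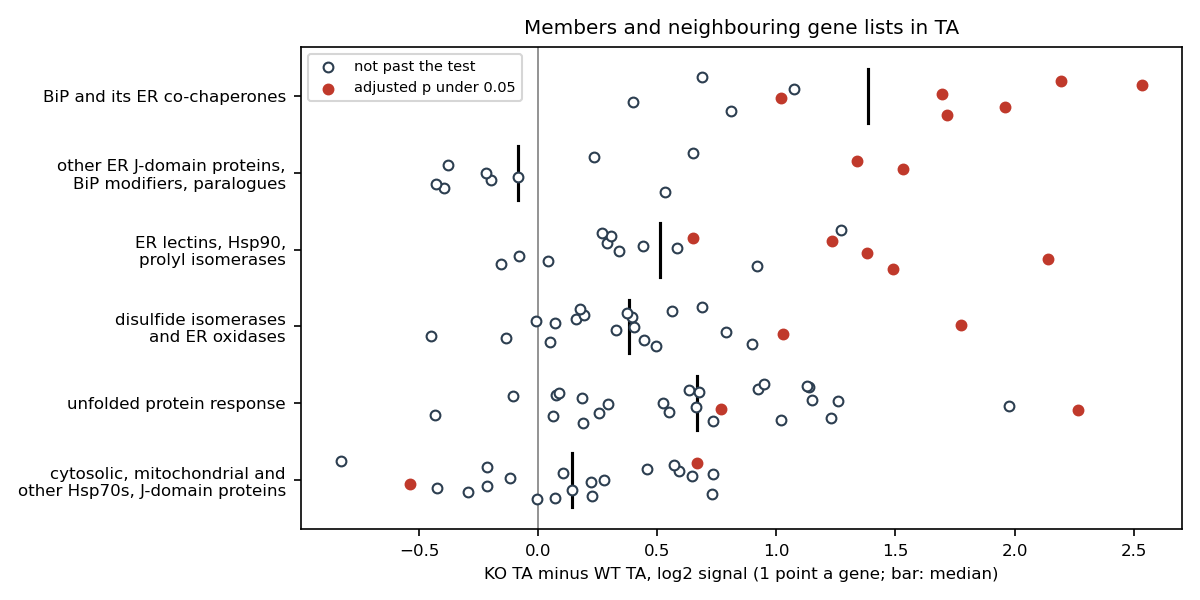
KO TA minus WT TA log2 signal of each tested gene in 6 lists, with filled points past an adjusted p of 0.05 and a bar at each median. The median is 1.39 for BiP and its co-chaperones and between -0.09 and 0.67 for the 5 other lists.

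The genes whose profile over the 12 arrays was most like that of Hspa5 were sought among 8555 tested genes outside the 10 with a mean log2 above 5. Likeness was the root mean square difference of log2 values centred on each gene's mean, where smaller is more alike, and Hspa5 itself had a root mean square of 0.76 about its mean. Hsp90b1 was nearest at 0.223, followed by Pdia6 (0.322), Tmed9 (0.343), Magt1 (0.379), Uggt1 (0.380), 2610306M01Rik (0.382), Mettl9 (0.389) and Xbp1 (0.390). Among the members, Creld2 was the most like Hspa5 at 0.255, then Hspa13 (0.407), Dnajb9 (0.426) and Manf (0.447), and Sil1 the least at 0.577. To the mean profile of the 9 brighter members, Magt1, a subunit of the oligosaccharyltransferase, was nearest at 0.174. Hsp90b1 (0.222), Nudcd1 (0.228), Sec11c (0.233), Spcs3 (0.237), 9330151L19Rik (0.242), Tmed9 (0.246) and Pdia6 (0.252) followed. The arrays behind this likeness share muscle and genotype, so it describes these 12 arrays only.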

How the data were processed

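One-colour Affymetrix arrays of 12 muscle RNA samples were used, prepared from Trizol-extracted RNA as biotin-labelled cRNA per the labels' protocols. The authors deposited log2 signals for 45101 probe sets per array, from 0.89 to 16.36. The submitters' processing notes name MAS5 without role or version, and the summary method is otherwise not given in the sources used here. Groups and replicate numbers came from the sample titles.

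Here the arrays were quantile normalized, since their 2% trimmed means differed by up to 1.11 times, and a probe set was kept if 3 or more arrays placed it over the array's percentile 40 (log2 2.76). Of 34945 with 1 symbol, 22648 were kept, and the brightest stood for each of 13009 genes. Tests used R 4.3.3 and limma 3.58.1: lmFit on 4 group means over all 12 arrays, eBayes with a variance trend, 2-sided, Benjamini-Hochberg over all genes, threshold 0.05. Other probe sets of the members came from the same model on all kept probe sets. An exact permutation test of 3 against 3 arrays cannot go below p = 0.1. The method was tested on simulated data with independent noise on each array, which does not cover structure shared by arrays of equal number.

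The members, gene lists and markers were chosen with earlier results of these data known. The text names all members and H6pd, up to 4 called genes per pathway list (Ppib goes beyond this and was chosen after its values were seen), up to 2 per marker list and the 8 nearest profiles. Beyond that limit of 2, the muscle fibre and slow fibre markers were named in full. So were the 3 tested lymphocyte and plasma cell genes. Equal replicate numbers correlated in their deviations from group means at 0.35, 0.16 and 0.56 between KO and WT TA, 0.49, 0.43 and 0.59 between KO muscles and 0.35, 0.14 and 0.59 between WT muscles. All of these pass the limit of 0.1 for pairing, which here comes from the values and not the labels. KO and WT soleus did not pass, at 0.43, 0.09 and 0.61. Unequal numbers 1 and 2 also passed 0.1 between KO and WT TA (0.24 and 0.20) and between WT muscles (0.22 and 0.35). Between KO muscles they gave 0.098 and -0.02. Where unequal numbers pass as well, the limit does not show pairing by number. The alternatives were scaling, filters, probe set choice, model variants, the replicate block and leaving out arrays.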

Additional observations from a re-analysis of the deposited data

How the results depend on the processing

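Of the 169 results of the 10 genes under the alternatives for KO against WT in TA, 128 kept their direction and side of the threshold, 40 lost the call, 1 gained it (Sil1 with array weights, adjusted p = 0.0497) and 0 changed sign. With the replicate block (paired by number) 6 members stayed called in TA, each with the same call as without it, while genes called went to 913 (368 as reported) in TA, 2369 (1392) between WT muscles and 2194 (1165) between KO muscles. Without the arrays numbered 3, 56 genes and 0 members were called in TA. With the arrays of the compared groups alone, 4 genes and 0 members were called in TA, 0 genes in soleus, 706 between WT muscles, and 631 genes and 0 members between KO muscles; fewer arrays estimate the spread there. Leaving out single arrays gave 85 to 398 genes and 0 to 5 members in TA, 3 to 30 genes in soleus, 1 to 20 genes for the difference of effects, 699 to 1281 between WT muscles, and 585 to 1072 genes and 0 to 4 members between KO muscles.

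In soleus, where 4 genes were called, median centring gave 7, no filter 1, the mean of probe sets 1, no variance trend 2, robust eBayes 1 and array weights 360 with 1 member. For the difference of effects, where 5 were called, a mean log2 above 5 gave 1, no filter 3, no trend 1, array weights 10 and leaving out the arrays numbered 3 gave 8. Between WT muscles median centring gave 4096 and array weights 2800. Between KO muscles, where 1 member was called, the filter on a mean log2 above 5 left 0 (Sdf2l1 is then not tested), and array weights and leaving out the arrays numbered 3 gave 3 each. Median centring moved the median difference of all genes to -0.18 between WT muscles and -0.14 between KO muscles, from -0.02 in both as reported. It split the TA calls into 132 higher and 214 lower, against 185 and 183 as reported, with 5 members called, and the WT muscle calls into 712 and 3384, against 578 and 814. Values as deposited split the KO muscle calls into 681 and 458, against 565 and 600.

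Signs near 0 turned. Dnajc3's difference of effects was 0.019 on values as deposited, 0.36 with the mean of probe sets, 0.15 without the arrays numbered 3, and -0.20 to 0.12 leaving out single arrays. Dnajb11 in soleus ranged from -0.041 to 0.48 leaving out single arrays. Between WT muscles, values as deposited gave 0.027 for Dnajb9 and 0.12 for Dnajb11, the mean of probe sets 0.075 for Dnajc3, median centring -0.022 for Sdf2l1 and array weights -0.10 for Creld2. Leaving out single arrays there gave -0.19 to 0.085 for Dnajb9, -0.17 to 0.096 for Dnajb11, -0.29 to 0.036 for Dnajc3 and -0.051 to 0.30 for Hspa13. Between KO muscles it gave -0.60 to 0.045 for Hspa5, -0.23 to 0.0016 for Dnajc3 and -0.26 to 0.0039 for Hspa13. Where not stated, the cause was not tested. Signal over background limits Sdf2l1 and the dim Hspa13, Dnajc3 and Ddit3 probe sets.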
